A study of Mus musculus with 39 samples.

Results

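The mRNA of 9 chemokine receptor genes, Ccr1, Ccr2, Ccr7, Cxcr3, Cxcr4, Cxcr5, Cxcr6, Cx3cr1 and Ackr1, was measured in kidney, liver, lung and skin of mice. The genes were chosen by name, and each had a row in both deposited count tables, which held 24537 genes for kidney, liver and lung and 52508 genes for skin. All mice were Prf1-/- on the C57BL/6 background, so every group, the controls included, lacked perforin, the protein by which cytotoxic lymphocytes perforate the membrane of their target cells. The young group was 3 months old and received no treatment. The vehicle group was 20 months old and received the vehicle solution alone, and the ABT-737 group was 20 months old and received ABT-737, an inhibitor of BCL-2 family proteins that keep cells alive, which is used to remove senescent cells. ABT-737 was injected intraperitoneally at 25 mg/kg on 2 consecutive days of each month for 2 months, starting at 18 months of age. Each group had 3 libraries per tissue, except the young groups of kidney, liver and lung with 4, which made 39 libraries in 12 groups. Of the 12 libraries of the ABT-737 groups, 8 carried a treatment label with another drug number and were placed by their titles. Young mice differed from vehicle mice in age and in having had no injections, perforin was absent from the whole body rather than from 1 cell type, and wild-type tissue was not analysed here.

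Chemokine receptors sit in the membrane of leukocytes, couple to inhibitory G proteins and steer the cell along a gradient of a chemokine ligand. Inflammatory receptors such as CXCR3 and CCR2 bring activated T cells and monocytes into inflamed tissue, homeostatic receptors such as CCR7 and CXCR5 place lymphocytes and dendritic cells within lymphoid tissue, and atypical receptors such as ACKR1 bind chemokines without signalling through G proteins. In kidney, liver and skin most of these transcripts are carried by few resident or infiltrating leukocytes, whereas the lung holds many leukocytes at rest.

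Of the receptors called between vehicle and young mice, the 4 with a promoter in the RefSeq table are shown by their sequence. Each is the region of 250 bases before to 50 bases after the annotated gene start (assembly GRCm38.p6). The letters are read 5′ to 3′ along the gene's strand. Sequences were found for 7 of the 9 members, the exceptions being Ccr7 and Cxcr5. Capitals mark matches on either strand to 4 motifs that were searched, AGGAAG (the core of ETS factor sites), AGATAA (bound by factors of the GATA family), TTTCNNTTT (paired interferon response elements) and TATAAA (the TATA box).
Cxcr3, chrX:101734098-101734397, minus strand: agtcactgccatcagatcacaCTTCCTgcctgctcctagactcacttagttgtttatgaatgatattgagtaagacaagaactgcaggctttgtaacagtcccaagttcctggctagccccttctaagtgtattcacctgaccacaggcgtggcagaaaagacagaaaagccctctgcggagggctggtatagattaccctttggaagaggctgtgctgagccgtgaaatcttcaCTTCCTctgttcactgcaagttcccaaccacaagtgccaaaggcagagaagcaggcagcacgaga
Ccr2, chr9:124101933-124102232, plus strand: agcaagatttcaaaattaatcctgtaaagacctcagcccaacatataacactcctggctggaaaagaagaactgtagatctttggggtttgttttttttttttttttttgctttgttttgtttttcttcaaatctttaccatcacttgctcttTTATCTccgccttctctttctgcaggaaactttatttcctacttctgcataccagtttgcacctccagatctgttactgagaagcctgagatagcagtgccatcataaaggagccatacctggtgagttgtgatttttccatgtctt
Cx3cr1, chr9:120068247-120068546, minus strand: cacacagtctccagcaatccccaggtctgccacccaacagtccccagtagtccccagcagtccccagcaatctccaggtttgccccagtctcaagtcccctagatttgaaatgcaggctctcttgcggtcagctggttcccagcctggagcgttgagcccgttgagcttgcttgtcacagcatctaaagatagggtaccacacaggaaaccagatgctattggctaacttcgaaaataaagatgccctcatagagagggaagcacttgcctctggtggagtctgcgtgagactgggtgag
Cxcr4, chr1:128592250-128592549, minus strand: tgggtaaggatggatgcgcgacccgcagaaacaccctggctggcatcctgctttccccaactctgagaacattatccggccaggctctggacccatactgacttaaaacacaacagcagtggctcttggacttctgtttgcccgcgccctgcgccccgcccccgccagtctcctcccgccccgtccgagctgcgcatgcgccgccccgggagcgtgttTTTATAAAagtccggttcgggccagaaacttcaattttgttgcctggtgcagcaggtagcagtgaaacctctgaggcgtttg
The Cxcr3 window held AGGAAG on the reverse strand at -229 and -15 relative to the gene start. Ccr2 held AGATAA on the reverse strand at -97, Cxcr4 held TATAAA on both strands at -30 and -32 in overlapping letters, and Cx3cr1 held none of the 4 motifs. Of 32851 promoter windows of the same length, 35.4% held AGGAAG, 11.2% AGATAA, 10.6% TTTCNNTTT and 13.6% TATAAA. Of the members not printed, Ackr1 held 3 matches to AGGAAG and 1 to AGATAA, Ccr1 held 2 to TTTCNNTTT and Cxcr6 none.

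The 9 members lie on 4 chromosomes (build mm10), and each is a protein-coding gene. Cxcr3 lies at chrX:101731535-101734147 on the minus strand, Ccr7 at chr11:99144199-99155077 on the minus strand, and Cxcr4 at chr1:128588199-128592299 and Ackr1 at chr1:173331886-173333503, both on the minus strand. The other 5 lie on chromosome 9, Cxcr5 at chr9:44511787-44526421, Cx3cr1 at chr9:120048683-120068296 and Ccr1 at chr9:123962126-123968692 on the minus strand, and Cxcr6 at chr9:123806477-123811754 and Ccr2 at chr9:124102183-124109140 on the plus strand. Exons of Cxcr5 overlap exons of Bcl9l on the opposite strand, and exons of Ackr1 overlap those of Cadm3 on the same strand. Whether strand was used in counting is not given in the sources used here, so reads of these pairs could not be separated.

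Libraries were sequenced from the 3′ end of transcripts and gave 1431814 to 3513311 counts per kidney library. Lung libraries had 1046508 to 2600092, skin libraries 1493411 to 3842808, and liver, the shallowest, 223957 to 891116. No pair of libraries of a tissue held identical counts. Skin was counted on other gene models than the other tissues and was not tested against them. Prf1 itself had 0 to 169 counts per library, and as these 3′ reads need not lie in the deleted part, they do not check the genotype. The whole tissues were mixtures of cells, and in such samples fewer cells of a type and less RNA per cell cannot be told apart. Defining markers of each tissue were present, but some libraries stood apart. Lung vehicle replicate 5 had the highest leukocyte sum (4970 CPM over 5 marker genes), lung ABT-737 replicate 3 had 20100 CPM of erythroid markers, and lung ABT-737 replicate 4 had 1170 CPM of adipocyte markers and 815 CPM of liver markers. Skin vehicle replicate 5 had 287 CPM of neutrophil markers, and skin held 5000 to 44200 CPM of skeletal muscle markers. CPM stands throughout for the count per 1e6 counts of the library size after TMM scaling.

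**Figure D1:**
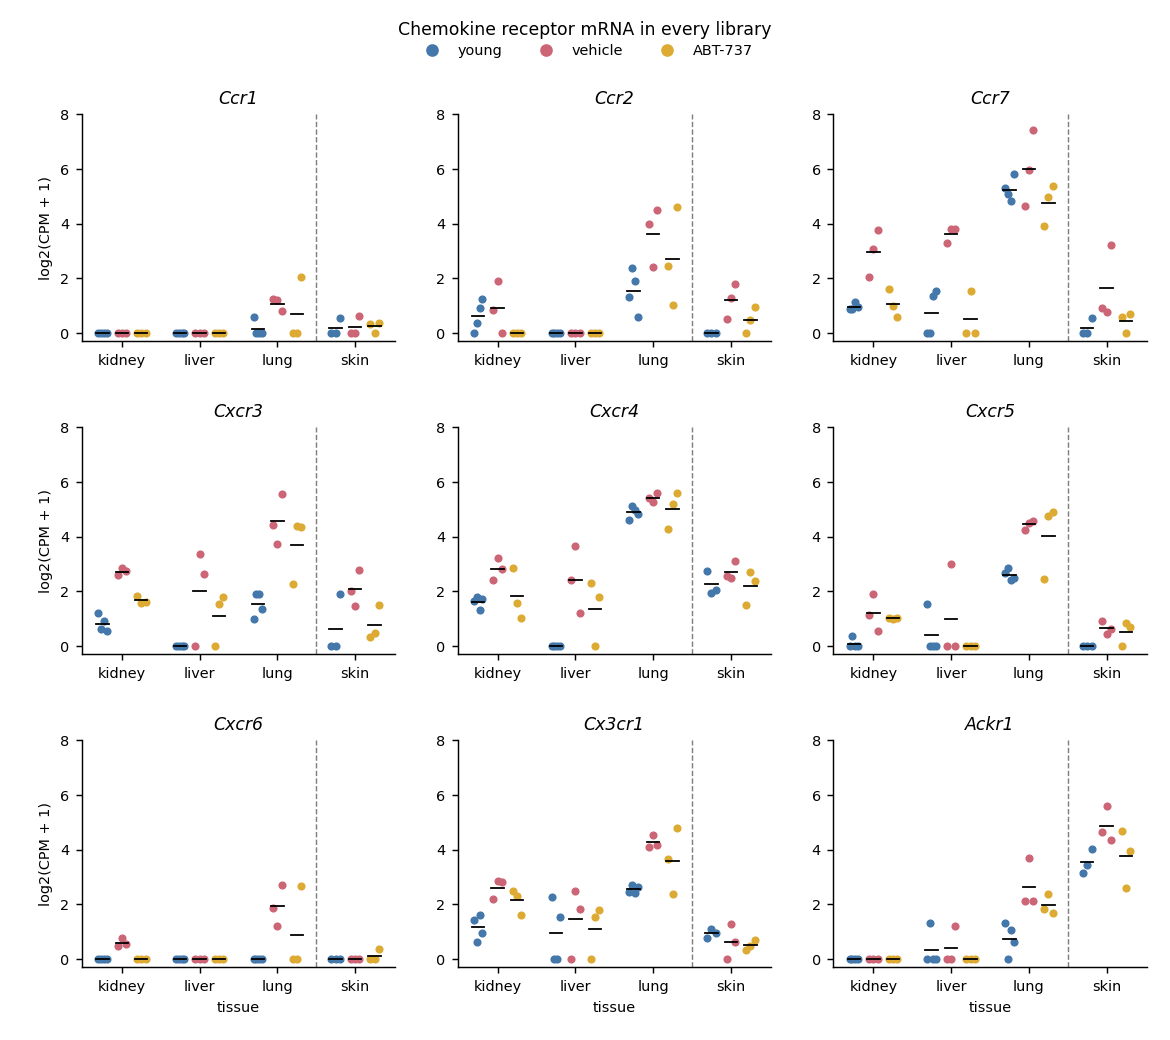
Level of each of the 9 receptors in every library as log2(CPM + 1) on the vertical axis, by tissue on the horizontal axis. Points are libraries coloured by group, short bars are group means, and the dashed line sets off skin, which was counted on other gene models. Cxcr3 of kidney stands in 3 bands, with vehicle highest, ABT-737 between and young lowest, and Ccr7 and Cxcr4 of lung are detected in all 10 libraries.

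The main change was between young and vehicle mice, which differed in age and in injections, so age and injection cannot be told apart. Of the 36 combinations of a receptor and a tissue, 10 passed the expression filter, 6 of these were higher in vehicle than in young mice at an adjusted p under 0.05 (edgeR quasi-likelihood test, Benjamini-Hochberg adjustment over all genes of the tissue), 1 was higher in ABT-737 than in young mice, and none differed between ABT-737 and vehicle mice. The 6 were Cxcr3 and Cxcr4 in kidney and Ccr2, Cxcr3, Cxcr5 and Cx3cr1 in lung. In 5 combinations no library had a count, and in 10 no library had more than 3 counts, so that for the rarer receptors a difference was not detectable at this depth. As background, 13.3% of 11123 genes tested were called between vehicle and young mice in kidney. The share was 12.9% of 11949 genes for lung, 11.2% of 14224 for skin and 22.6% of 5583 for liver. Of the receptors that passed the filter, 2 of 2 were called in kidney, 4 of 6 in lung and 0 of 2 in skin, while none passed it in liver. A rare gene that passes through the libraries where it is high has to differ, so these shares do not describe the 9 receptors and are not set against the background. In skin 1 of 2 had an unadjusted p under 0.05, and DESeq2 called none there.

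Every vehicle library lay above every young library for 6 of the 9 receptors in kidney, where 12% of all genes with a count had that order, for 8 in lung (12.3%), 4 in skin (12.1%) and 2 in liver (10.4%). With receptors too rare to test included, the vehicle mean was above the young mean for all 9 receptors detected in lung, all 7 in kidney, all 6 in liver and 7 of 9 in skin, where Cx3cr1 and Cxcr6 were not higher. Of all genes tested, 52.2% had the higher level in vehicle mice in lung, 50.5% in kidney, 51% in liver and 53% in skin. These shares are of genes past the filter, which few of the receptors passed outside lung. A receptor detected only through vehicle libraries, as Cxcr6 in kidney, has to lie higher there. The counts of receptors are therefore not set against these shares.

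ABT-737 mice and vehicle mice were of the same age, and their comparison asks how the receptors stood after the drug. The vehicle mean was above the ABT-737 mean for 9 of 9 detected receptors in lung, 7 of 7 in kidney, 6 of 6 in liver and 7 of 9 in skin. Of all genes tested, 52.8% had the higher level in ABT-737 mice in lung, 51.2% in kidney, 47.1% in liver and 55.1% in skin. These shares again cover only genes past the filter, and a receptor detected only through vehicle libraries has to lie higher there. The counts of receptors are not set against them. The lung count includes Ccr1, with 7 counts in all in each group, for which the fit without a filter gave 0.23 in favour of ABT-737. No tested receptor passed the threshold. The background was 1.35% of genes called in kidney, 0% in lung, 0% in skin and 3.85% in liver, and at an unadjusted p under 0.05 the test held 1 of 2 receptors in kidney (Cxcr3), 1 of 6 in lung (Ccr7) and 0 of 2 in skin. DESeq2, run on every gene with a count, called 207 genes in kidney, Ccr7 among them, and no receptor in the other tissues. Every vehicle library lay above every ABT-737 library for 3 receptors in kidney, Ccr7, Cxcr3 and Cxcr6 (background 7.22%), 1 in liver, Ccr7 (8.09%), 0 in lung (5.39%) and 1 in skin, again Ccr7 (4.37%). For lung and skin as a whole, edgeR called 0 genes, with 1919 and 1134 genes at an unadjusted p under 0.05, whereas DESeq2 called 328 and 58.

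Between ABT-737 and young mice, which differed in age as well as treatment, the call was Cxcr3 in lung, 1 of 6 receptors tested where 2.55% of all genes were called. In kidney edgeR called 0 of 2 (background 2.12%), with Cxcr3 at an unadjusted p under 0.05, and in skin 0 of 2 (background 5.17%) with none at that level. No receptor was tested in liver, where the background was 8.4%. DESeq2 called none in kidney, liver or skin, and Cxcr3 and Cxcr5 in lung. The 3 contrasts of a tissue share their libraries and are not independent of each other.

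**Figure D2:**
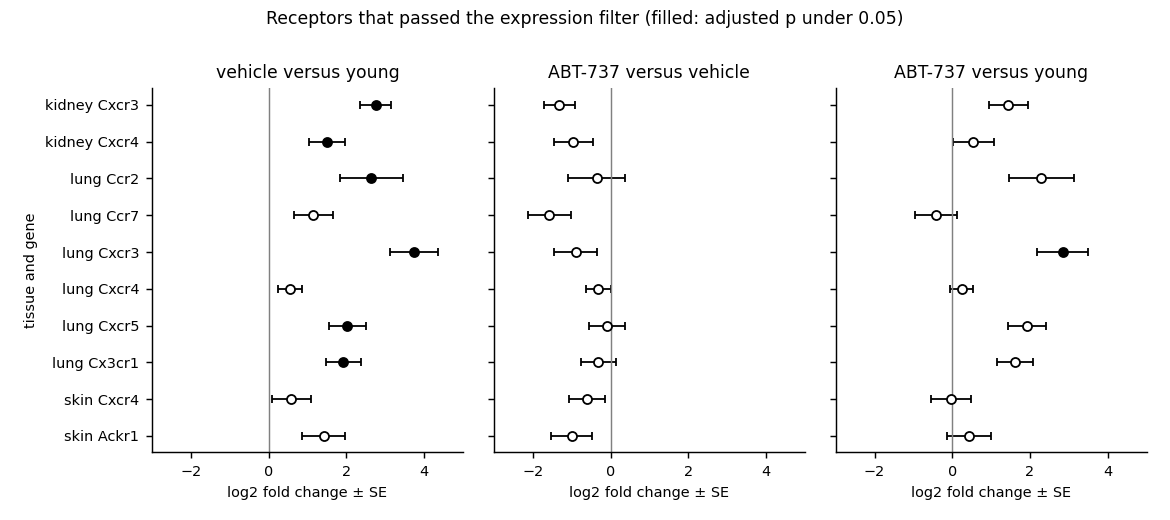
Log2 fold change with its SE on the horizontal axis, for the 10 combinations of tissue and receptor that passed the expression filter, in each of the 3 contrasts. Filled points passed an adjusted p under 0.05. All 10 points of vehicle against young lie above 0 and all 10 of ABT-737 against vehicle lie below 0.

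CXCR3 is the receptor of the interferon-induced chemokines CXCL9, CXCL10 and CXCL11 on activated T cells and natural killer cells. Of the tested receptors, Cxcr3 had the largest vehicle minus young difference in both kidney and lung. In kidney, Cxcr3 was at 1.29, 0.551, 0.878 and 0.462 CPM in the 4 young libraries, at 5.10, 6.16 and 5.63 CPM in the vehicle libraries and at 2.57, 1.98 and 2.08 CPM in the ABT-737 libraries. The 3 groups did not overlap, and ABT-737 libraries lay between the others. Vehicle was higher than young by 2.75 on the log2 scale (SE 0.409, adjusted p = 0.00032, edgeR), a call that held without any single library. No young library had more than 3 counts of Cxcr3, with 9 counts in all, so the size of a difference from young is imprecise. From summed counts, vehicle was 7.1-fold above young (counting interval 3.34 to 16.8) and ABT-737 2.83-fold (1.12 to 7.5). These intervals cover counting error only. The difference of ABT-737 from vehicle was -1.31 (SE 0.398, adjusted p = 0.121) and that of ABT-737 from young 1.44 (SE 0.499, adjusted p = 0.177). Neither passed the threshold after adjustment over all genes tested, at unadjusted p-values of 0.00447 and 0.0155 (edgeR).

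In lung, Cxcr3 was at 0.981, 2.78, 2.71 and 1.56 CPM in young libraries, at 20.8, 12.4 and 46.8 CPM in vehicle libraries and at 3.86, 20.0 and 19.7 CPM in ABT-737 libraries. Every older library lay above every young library, and vehicle and ABT-737 overlapped. Vehicle was higher than young by 3.74 (SE 0.621, adjusted p = 0.00316), and ABT-737 was higher than young by 2.84 (SE 0.654, adjusted p = 0.0413). The call against young in vehicle mice held without any single library, with a difference of 3.03 without vehicle replicate 5. The second was lost without any 1 of the 4 young libraries and without either vehicle replicate 3 or ABT-737 replicate 5, the latter giving 2.46 (adjusted p = 0.213), and with replicate number as a block it was 2.14 (adjusted p = 0.417). ABT-737 differed from vehicle by -0.90 (SE 0.557, adjusted p = 0.443), and by -0.19 without vehicle replicate 5.

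In liver Cxcr3 had 0 counts in all 4 young libraries, 0, 8 and 4 counts in vehicle libraries and 0, 1 and 1 counts in ABT-737 libraries, below the filter. In skin the young libraries had 0, 0 and 6 counts, the vehicle libraries 7, 5 and 21 and the ABT-737 libraries 1, 1 and 6, so that every group overlapped another. Without the filter, edgeR gave the vehicle libraries of liver an adjusted p of 0.0046 against young, and DESeq2 gave that gene no adjusted p.

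CXCR6, the receptor of the membrane-bound chemokine CXCL16 on tissue-resident T cells, passed the filter in no tissue. In lung Cxcr6 had 0 counts in all 4 young libraries, 4, 3 and 15 counts in vehicle libraries and 0, 0 and 12 counts in ABT-737 libraries. Vehicle libraries all lay above young ones and overlapped those of ABT-737. Against the limit of 3 counts per young library the mean vehicle level was at least 1.89-fold higher, and without the filter the adjusted p was 0.0169 in edgeR and 0.0308 in DESeq2. In kidney each vehicle library had 1 count and no other library had any, liver had none and skin had 1 count in 1 ABT-737 library.

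T cell marker genes were also highest in vehicle libraries. Over 8 T cell markers, the summed level was 12 to 15.5 CPM in young, 74.2 to 108 CPM in vehicle and 13.9 to 31.2 CPM in ABT-737 kidney, and 98 to 141, 518 to 1790 and 152 to 427 CPM in lung. In liver the sums were 2.98 to 10.8, 56.7 to 108 and 3.96 to 12.4 CPM, and in skin 7.24 to 11.5, 31.6 to 72.3 and 14.5 to 30.2 CPM. All 6 T cell markers tested in kidney rose from young to vehicle and 3 fell from vehicle to ABT-737. In lung all 8 rose and none was called between ABT-737 and vehicle. Of all genes tested, 13.3% were called from young to vehicle in kidney and 12.9% in lung. From vehicle to ABT-737 these shares were 1.35% and 0%. Their part in the receptor differences was not tested.

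**Figure D3:**
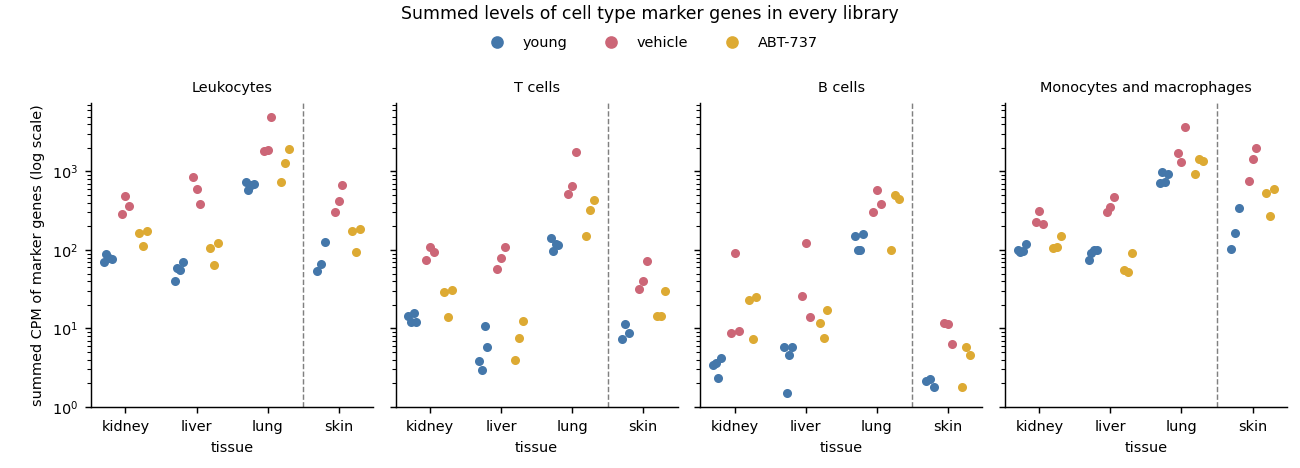
Summed CPM of marker genes of leukocytes, T cells, B cells, and monocytes and macrophages in every library, on a log axis, by tissue and group, with skin set off by a dashed line. In kidney, liver and skin every vehicle point of the leukocyte and T cell panels lies above every young and ABT-737 point, and in lung the vehicle points lie above the young ones.

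CCR7 guides naive T cells and mature dendritic cells to lymph nodes along its ligands CCL19 and CCL21, and Ccr7 was the receptor that differed between ABT-737 and vehicle once rare genes were tested too. In kidney Ccr7 had 2, 3, 4 and 2 counts in young libraries, 8, 11 and 27 counts in vehicle libraries and 4, 2 and 1 counts in ABT-737 libraries. All vehicle libraries lay above all others. Ccr7 was below the filter there, and the fit without a filter gave a vehicle minus young difference of 2.92 on the log2 scale (SE 0.523, adjusted p = 8.4e-05) and an ABT-737 minus vehicle difference of -2.63 (SE 0.599, adjusted p = 0.0082). In DESeq2 the adjusted p-values were 6.39e-04 and 0.0489.

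In liver Ccr7 had 0, 0, 1 and 1 counts in young libraries, 2, 11 and 10 counts in vehicle libraries and 0, 1 and 0 counts in ABT-737 libraries. Vehicle libraries again lay above the others. From summed counts over summed library sizes, the vehicle group was 14.6-fold above young (95% counting interval 3.6 to 128) and 14.6-fold above ABT-737 (2.37 to 602). These intervals cover counting error only. Without the filter the adjusted p was 0.00116 for vehicle against young and 0.0407 for ABT-737 against vehicle, and DESeq2 gave 0.045 for the former and none for the latter. In skin the counts were 0, 0 and 1 in young, 2, 2 and 30 in vehicle and 2, 0 and 2 in ABT-737 libraries, the highest being vehicle replicate 5, and the adjusted p without the filter was 0.0633 for vehicle against young and 0.355 for ABT-737 against vehicle.

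In lung Ccr7 had 22 to 453 counts per library and its groups overlapped. Young libraries had 38.3, 32.7, 27.1 and 55.6 CPM, vehicle libraries 24.1, 61.3 and 169 CPM and ABT-737 libraries 14.2, 30.6 and 41.2 CPM. The vehicle group ranged from below the lowest young library to above the highest. Each ABT-737 library lay below the vehicle library of its number, although no label pairs these numbers. The vehicle minus young difference was 1.15 (SE 0.504, adjusted p = 0.142), and it was 1.59 without vehicle replicate 3 (adjusted p = 0.0403), 0.16 without vehicle replicate 5 and 0.20 with replicate number as a block (adjusted p = 0.861). ABT-737 differed from vehicle by -1.57 (SE 0.564, adjusted p = 0.201), a value that shrank to -0.58 without vehicle replicate 5 and was -1.34 with the block (adjusted p = 0.0688), and from young by -0.42 (SE 0.537, adjusted p = 0.706).

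CXCR4 retains leukocytes and progenitors where its ligand CXCL12 is made and is carried by most leukocytes. Cxcr4 in kidney was at 2.14, 2.48, 1.46 and 2.31 CPM in young libraries, 4.32, 8.21 and 6.10 CPM in vehicle libraries and 6.16, 1.98 and 1.04 CPM in ABT-737 libraries. Vehicle lay above young without overlap, and ABT-737 overlapped both. Vehicle was higher than young by 1.5 (SE 0.459, adjusted p = 0.0409), but the call was lost without any 1 of the 4 young libraries and without vehicle replicate 4 or 5, at adjusted p-values of 0.0698 to 0.159, and in DESeq2 at 0.0744. ABT-737 differed from vehicle by -0.96 (SE 0.497, adjusted p = 0.394) and from young by 0.54 (SE 0.527, adjusted p = 0.651). Without ABT-737 replicate 3 these were -1.93 and -0.45.

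In lung Cxcr4 was at 23.5, 34.1, 30.4 and 27.6 CPM in young, 41.6, 37.7 and 47.1 CPM in vehicle and 18.7, 35.8 and 47.0 CPM in ABT-737 libraries. Vehicle lay above young, but by only 0.55 on the log2 scale (SE 0.297, adjusted p = 0.231). ABT-737 spanned both, with differences of -0.31 from vehicle (SE 0.320, adjusted p = 0.662) and 0.24 from young (SE 0.304, adjusted p = 0.703).

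Skin showed little order in Cxcr4, with 5.79, 2.88 and 3.18 CPM in young, 4.83, 4.63 and 7.72 CPM in vehicle and 1.82, 5.48 and 4.27 CPM in ABT-737 libraries. The groups overlapped, and vehicle differed from young by 0.58 (SE 0.497, adjusted p = 0.443) and ABT-737 from vehicle by -0.61 (SE 0.466, adjusted p = 0.791). In liver Cxcr4 had 0 counts in all young libraries, 1, 10 and 1 counts in vehicle libraries and 1, 0 and 1 counts in ABT-737 libraries, so most of its vehicle counts came from replicate 4.

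CXCR5 brings B cells and follicular helper T cells into B cell follicles towards CXCL13. Cxcr5 in lung was at 5.40, 6.26, 4.34 and 4.68 CPM in young libraries, 18.1, 21.9 and 22.8 CPM in vehicle libraries and 4.51, 26.3 and 28.6 CPM in ABT-737 libraries. Vehicle libraries were close together and all above young, while ABT-737 replicate 3 lay within the young range and the other 2 ABT-737 libraries above all vehicle libraries. Vehicle was higher than young by 2.02 (SE 0.476, adjusted p = 0.0148), a call lost without young replicate 3 (adjusted p = 0.0508) and without vehicle replicate 5 (adjusted p = 0.0594). ABT-737 exceeded young by 1.93 (SE 0.487, adjusted p = 0.0507), which fell under the threshold in DESeq2 (adjusted p = 0.0174) and without ABT-737 replicate 3 (2.40, adjusted p = 0.00470), vehicle replicate 4 or vehicle replicate 5. The ABT-737 minus vehicle difference was -0.09 (SE 0.470, adjusted p = 0.945) and 0.39 without ABT-737 replicate 3.

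Bcl9l, a Wnt pathway coactivator gene whose exons overlap those of Cxcr5 on the other strand, went the opposite way in lung, from 198 ± 21.1 CPM in young (SD, n = 4) to 83.5 ± 33.5 CPM in vehicle libraries (SD, n = 3), a log2 difference of -1.24 (SE 0.299, adjusted p = 0.0158 in edgeR). The 5 B cell markers summed to 100 to 158 CPM in young, 304 to 577 CPM in vehicle and 99.8 to 499 CPM in ABT-737 lung, and their part in the Cxcr5 difference was not tested. In kidney Cxcr5 had 0, 1, 0 and 0 counts in young, 3, 4 and 1 counts in vehicle and 2, 2 and 2 counts in ABT-737 libraries. The fit without a filter gave an adjusted p of 0.0444 for vehicle against young, and DESeq2 gave 0.0750. In liver 1 young library had 1 count and 1 vehicle library had 6, and in skin no library had more than 2.

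CCR2 releases inflammatory monocytes from the bone marrow and draws them towards CCL2 and related chemokines. Ccr2 in lung was at 1.47, 4.17, 2.71 and 0.520 CPM in young libraries, 14.8, 4.29 and 21.7 CPM in vehicle libraries and 4.51, 1.05 and 23.3 CPM in ABT-737 libraries. All vehicle libraries lay above the young ones, though the lowest only just, and ABT-737 spread over the range of both. Vehicle was higher than young by 2.65 (SE 0.809, adjusted p = 0.0453), and the call was lost without any 1 of the 4 young libraries and without vehicle replicate 3 or 5, the last giving 2.08 (adjusted p = 0.249). ABT-737 differed from vehicle by -0.36 (SE 0.741, adjusted p = 0.843), ranging from -2.15 without ABT-737 replicate 5 to 0.21 without vehicle replicate 5, and from young by 2.29 (SE 0.831, adjusted p = 0.141), which passed without ABT-737 replicate 4 at 2.71 (adjusted p = 0.0375) and was 0.51 without ABT-737 replicate 5.

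In kidney Ccr2 had 0, 1, 3 and 3 counts in young, 2, 4 and 0 counts in vehicle and none in ABT-737 libraries. In skin it had none in young, 1, 4 and 9 counts in vehicle and 0, 1 and 3 counts in ABT-737 libraries, and in liver none in any library. CCR1, which binds ligands such as CCL3 and CCL5 and serves monocytes and neutrophils, passed the filter in no tissue. Ccr1 had 1, 0, 0 and 0 counts in young lung, 2, 3 and 2 counts in vehicle lung and 0, 0 and 7 counts in ABT-737 lung, at most 2 counts in any skin library and 0 in kidney and liver.

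CX3CR1, the receptor of fractalkine (CX3CL1), marks patrolling monocytes and many resident macrophages. Cx3cr1 in lung was at 4.41, 5.56, 4.34 and 5.20 CPM in young libraries, 16.1, 22.3 and 17.2 CPM in vehicle libraries and 11.6, 4.22 and 26.4 CPM in ABT-737 libraries. Vehicle libraries all lay far above young, and ABT-737 libraries ranged from just below the lowest young value to above the highest vehicle value. Vehicle was higher than young by 1.92 (SE 0.458, adjusted p = 0.0153), lost without young replicate 1 (adjusted p = 0.0519) or 3 (0.0508). ABT-737 differed from vehicle by -0.31 (SE 0.454, adjusted p = 0.766) and from young by 1.61 (SE 0.469, adjusted p = 0.0763), and without ABT-737 replicate 4 these were 0.04 and 1.96 (adjusted p = 0.00592). Without ABT-737 replicate 5 they were -1.17 and 0.76.

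In kidney Cx3cr1 had 4, 2, 7 and 2 counts in young libraries, 9, 9 and 13 counts in vehicle libraries and 9, 8 and 4 counts in ABT-737 libraries. All vehicle libraries were above all young ones in CPM, and ABT-737 overlapped both. Without the filter the vehicle minus young difference was 1.92 (SE 0.506, adjusted p = 0.0085), with 0.0223 in DESeq2. In liver and skin no library had more than 4 counts. The 7 monocyte and macrophage markers summed to 723 to 971 CPM in young, 1330 to 3670 CPM in vehicle and 935 to 1450 CPM in ABT-737 lung, and to 93.4 to 120, 216 to 309 and 106 to 151 CPM in kidney. Their part in the Ccr2 and Cx3cr1 differences was not tested.

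In lung, deviations of same-numbered vehicle and ABT-737 libraries correlated at 0.176, 0.296 and 0.427, but vehicle replicate 4 reached 0.303 with another number. Young and vehicle libraries of the same number correlated at 0.0637 and 0.106, so a pairing of these groups is not established. With replicate number as a block, 1 of the 4 calls of vehicle against young stayed, that of Cxcr3. Over all genes the block took the calls from 1539 to 333. The blocked differences of vehicle from young were 2.23 for Ccr2 (adjusted p = 0.127), 1.98 for Cxcr5 (adjusted p = 0.104) and 1.73 for Cx3cr1 (adjusted p = 0.160).

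ACKR1, the Duffy antigen receptor on venular endothelium and red cells, binds many chemokines and transports them without G protein signalling. Ackr1 in skin was at 7.96, 9.78 and 15.5 CPM in young, 24.2, 47.3 and 19.3 CPM in vehicle and 24.9, 5.09 and 14.6 CPM in ABT-737 libraries. Vehicle lay above young without overlap, and the ABT-737 group spanned both. The vehicle minus young difference was 1.42 (SE 0.557, adjusted p = 0.117), and 1.43 with an adjusted p of 0.0495 when only these groups entered the fit. ABT-737 differed from vehicle by -1.0 (SE 0.526, adjusted p = 0.682) and from young by 0.42 (SE 0.561, adjusted p = 0.638), the latter -0.17 without ABT-737 replicate 3.

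The 6 endothelial markers of skin summed to 41.2 to 77.3 CPM in young, 116 to 203 CPM in vehicle and 63.1 to 95.7 CPM in ABT-737 libraries. The 4 erythroid markers summed to 132 to 168, 328 to 4420 and 92.1 to 253 CPM. In lung the endothelial sums were 1440 to 1580, 609 to 1850 and 1090 to 1720 CPM and the erythroid sums 663 to 1220, 852 to 6910 and 2270 to 20100 CPM. The part of these markers in the Ackr1 differences was not tested. In lung Ackr1 had 3, 0, 2 and 1 counts in young, 5, 28 and 9 counts in vehicle and 4, 4 and 5 counts in ABT-737 libraries, and the fit without a filter gave a vehicle minus young difference of 2.85 (SE 0.721, adjusted p = 0.0112), with 0.0167 in DESeq2. Cadm3, a cell adhesion gene whose exons overlap those of Ackr1, rose in lung by 2.89 (SE 0.733, adjusted p = 0.0200) and differed in skin by 1.01 (SE 0.572, adjusted p = 0.255). Kidney had no Ackr1 count in any library, and liver had 1 count in each of 1 young and 1 vehicle library.

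Resting receptor levels of young mice were compared on a common scale for kidney, liver and lung. Ccr7 was at 30.7 ± 10.1 CPM in lung, 0.846 ± 0.138 CPM in kidney and 1.17 ± 1.37 CPM in liver (SD, n = 4 each). Cxcr4 was at 23.1 ± 3.56 CPM in lung and 1.88 ± 0.406 CPM in kidney, with 0 counts in liver. Lung was above kidney for 4 of the 6 receptors tested, where 64.3% of all 13107 genes were called, by 5.06 for Ccr7 (SE 0.553, adjusted p = 9.75e-10), 3.57 for Cxcr4 (SE 0.404, adjusted p = 4.25e-09) and 1.67 for Cx3cr1 (SE 0.528, adjusted p = 0.00627). The fourth, Cxcr5, was 52.4-fold higher from summed counts over summed library sizes (95% counting interval 8.84 to 2130), as kidney had 1 count in all (adjusted p = 7.62e-06, edgeR). The share of receptors called was near that of all genes here and below it in the other pairs of tissues, so the calls do not set the receptors apart.

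For Ccr2 (adjusted p = 0.188) and Cxcr3 (adjusted p = 0.184), edgeR did not call lung against kidney. DESeq2 and the fit without a filter each called 5 receptors there, with 9009 and 9187 genes called in all against 8425 in the main fit. By counts Ccr2 was 3.04-fold higher in lung (95% counting interval 1.16 to 8.8). Lung was above liver for 2 of 6, where 62.2% of genes were called, Ccr7 being 26.9-fold higher (7.37 to 223, adjusted p = 2.06e-05) and Cxcr4 at least 3.28-fold higher (adjusted p = 6.13e-07). Kidney and liver did not differ for any of the 6 (edgeR, background 41.2%), although Cxcr4 had an unadjusted p under 0.05 and DESeq2 called none. It was called without kidney ABT-737 replicate 3 or liver vehicle replicate 4 or 5. Lung was therefore first for Ccr7 and Cxcr4 and above kidney for Cxcr5 and Cx3cr1, while neighbours further down the order were not separated. At 0 to 3 counts in most young liver libraries, smaller differences were not detectable.

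Whether the group differences varied between tissues was tested in the same fit. The vehicle minus young difference of Cxcr4 differed between lung and liver (adjusted p = 0.0248, 1 of 6 receptors, background 11.4%), resting on 12 vehicle counts against 0 young counts in liver, and it was lost without liver vehicle replicate 4 or liver young replicate 2 or 3. Without lung vehicle replicate 5 the count was 2. For lung minus kidney edgeR called 0 of 6 (background 8.04%), with Ccr7 at an unadjusted p under 0.05 and a difference of -1.73 (SE 0.773, adjusted p = 0.160), which passed without lung vehicle replicate 5. For liver minus kidney it called 0 (background 0.786%), with Cxcr4 at an unadjusted p under 0.05. The ABT-737 minus vehicle differences of the receptors gave 0 calls, and none at an unadjusted p under 0.05, between lung and kidney (background 0%), lung and liver (0.29%) and liver and kidney (0.0839%). DESeq2 called the same number of receptors as edgeR in each of these 6 contrasts.

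Genes with the most similar pattern were sought over the 30 libraries of kidney, liver and lung, as the correlation of log2 CPM after removal of each tissue's mean, among 12798 genes. These are descriptions over libraries that share depth and tissue. Cxcr5 was most like Ifi211 (r = 0.910), Btla (r = 0.874) and H2-Eb2 (r = 0.858), and Cxcr3 like Fcgr4 (r = 0.891), Rassf2 (r = 0.890) and Ms4a7 (r = 0.889). Ccr7 was most like Lck (r = 0.860), Coro1a (r = 0.849) and Ly6c2 (r = 0.845), and Cxcr4 like Atp2a3 (r = 0.868), Was (r = 0.831) and Lsp1 (r = 0.823). Cx3cr1 reached 0.773 with Relb, and Ccr2 reached 0.876 with Muc4. Among the 6 receptors themselves r ran from 0.156 between Ccr2 and Ccr7 to 0.701 between Cxcr3 and Cx3cr1.

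Of the ligands of the 9 receptors, a list of 18 genes, some were higher in vehicle than in young mice in each tissue. From young to vehicle 11 of 16 tested ligands rose in lung, 8 of 14 in skin, 8 of 11 in kidney and 4 of 6 in liver, with median log2 differences of 4.31, 3.15, 2.08 and 1.57, and 1 ligand fell, Cx3cl1 in lung by 0.86 (adjusted p = 0.0399). The medians over all genes tested were 0.04, 0.05, 0.01 and 0.02 in the same order. Of all genes tested, 12.9%, 11.2%, 13.3% and 22.6% were called, again in that order. A rare ligand that passes the filter through the libraries where it is high has to differ, so these counts do not describe all 18 ligands. Ccl5, a ligand of CCR1 made by activated T cells, rose in kidney from 15.2 ± 5.45 CPM (SD, n = 4) to 262 ± 102 CPM (SD, n = 3), by 4.05 (adjusted p = 8.16e-07, edgeR), and in liver from 7.36 ± 2.77 to 282 ± 67.3 CPM, by 5.26 (adjusted p = 8.46e-07). The CXCR3 ligand Cxcl9 rose in lung from 2.42 ± 0.708 to 500 ± 430 CPM (adjusted p = 0.00259), and Cxcl10 by 6.43. In skin Ccl8 rose by 5.48 (adjusted p = 0.0178), Ccl5 by 5.32 (0.0148) and the CXCR5 ligand Cxcl13 by 5.13. The count of 8 ligands in skin was 0 without young replicate 1 or 2, 4 without young replicate 3 and 5 without vehicle replicate 5.

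From vehicle to ABT-737 the ligand medians were -1.84 in liver, -1.77 in skin and -1.04 in both kidney and lung. Medians over all genes were -0.03, 0.04, 0.01 and 0.04 for liver, skin, kidney and lung. The all-gene share called was 3.85% for liver and 1.35% for kidney, and it was 0% for the other tissues. A rare ligand that passes the filter through high vehicle libraries tends to lie lower after ABT-737, so the ligand counts do not describe the whole list. In kidney 2 of 11 fell, Ccl5 by 1.91 (adjusted p = 0.00422) and Cxcl10 by 1.87 (adjusted p = 0.00113). In liver 3 of 6 fell, Ccl5 by 3.22 (adjusted p = 2.05e-04), Cxcl9 by 2.21 (adjusted p = 0.0114) and Cxcl10 to at most 3 counts per library (adjusted p = 0.0101), a count that became 1 without ABT-737 replicate 4, and 5 in the fit that omitted vehicle replicate 3. In lung and skin edgeR called none of 16 and 14, though 13 and 14 lay below 0. Among all genes tested, 52.8% lay above 0 for lung and 55.1% for skin. Without ABT-737 replicate 5, edgeR called 5 ligands in lung. Against young mice, Ccl5 stayed higher after ABT-737 in kidney by 2.14 and in liver by 2.04, the latter beside a fall of Ccl9 by 1.66, and in lung Cxcl9 was higher by 5.59, Ccl8 by 5.21 and Cxcl13 by 5.0. In skin Cxcl12 was higher by 1.52 (adjusted p = 0.0464). Between ABT-737 and young mice the all-gene share called was 2.12% for kidney, 8.4% for liver, 2.55% for lung and 5.17% for skin. The ligand counts against young moved when 1 library was left out. Kidney gave 1 to 2 ligands (2 without young replicate 3), lung 0 to 7, skin 0 to 3 and liver 0 to 2. Those of liver moved without young replicate 1, 2 or 3 or any ABT-737 library, those of lung without any young library, vehicle replicate 4 or 5 or ABT-737 replicate 4 or 5, and those of skin without any young library, vehicle replicate 3 or 4 or ABT-737 replicate 4 or 5.

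**Figure D4:**
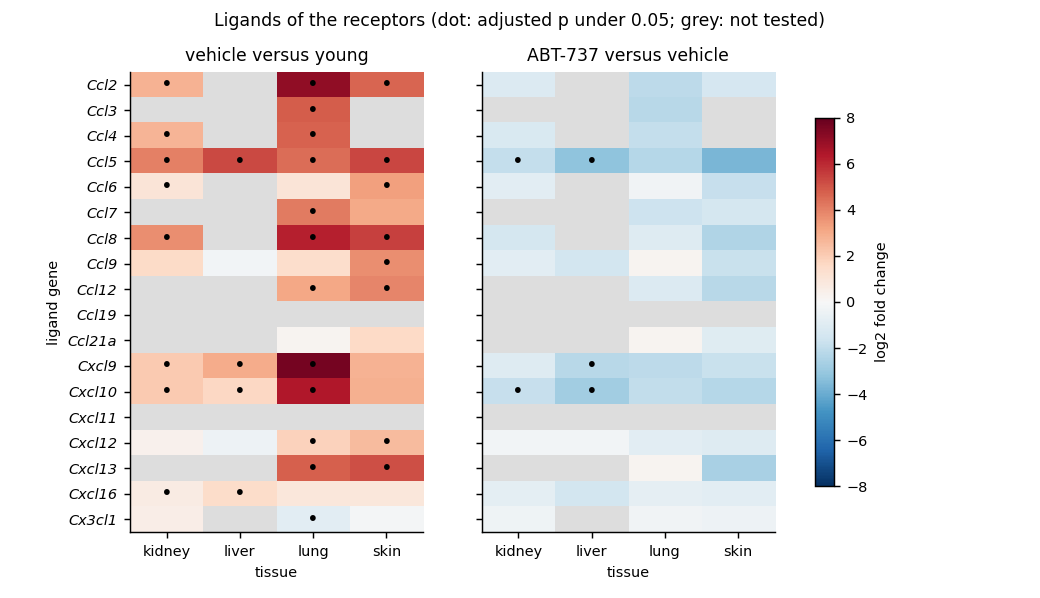
Log2 fold change of 18 ligand genes in the 4 tissues, for vehicle against young on the left and ABT-737 against vehicle on the right, on 1 colour scale. Dots mark an adjusted p under 0.05 and grey cells were below the expression filter. Red predominates on the left, blue on the right, and dots on the right stand in kidney and liver.

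Of 14 other chemokine receptor genes, 7 were tested in lung, 5 in skin, 2 in kidney and 0 in liver. In lung the vehicle minus young differences had a median of 0.42, with 4 above 0 and 3 below. In kidney, where 13.3% of all genes were called between vehicle and young mice, both tested genes rose from young to vehicle. Ackr3, a scavenger of CXCL12, rose by 1.29 and Ccrl2, which presents chemerin, by 1.22. Ackr3 was also higher in ABT-737 than in young mice by 1.27. In skin edgeR called none. The kidney count was 1 without vehicle replicate 3.

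Of 21 genes that carry the signal below these receptors, 9 of 17 rose and 1 fell from young to vehicle in kidney, 7 of 11 rose and 1 fell in liver, 12 of 21 rose and 1 fell in lung and 6 of 19 rose in skin. Of all genes tested, 13.3%, 22.6%, 12.9% and 11.2% were called, in the same order. A rare gene that passes the filter through the libraries where it is high has to differ, so these counts do not describe the whole list. In kidney the integrin subunit Itgal rose by 3.00, the exchange factor Vav1 by 2.93 and the integrin subunit Itgb2 by 2.82, while the inhibitory G protein subunit Gnai3 fell by 0.95. In lung Rgs1, a brake on G protein signalling, rose by 3.20, the Rac activator Dock2 by 2.69 and the kinase subunit Pik3cg by 2.62, while the receptor kinase Grk3 fell by 1.26. The lung count of 13 was 4 without vehicle replicate 5 and 8 without young replicate 3, and the skin count of 6 was 0 without young replicate 1, young replicate 2 or vehicle replicate 5.

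From vehicle to ABT-737, Itgb2 fell by 1.66 and Rac2, the Rac GTPase of blood cells, by 1.5 in kidney, and Rac2 fell by 3.11 and Itgb2 by 2.05 in liver. These 2 were the calls in either tissue, where 1.35% of all genes were called in kidney and 3.85% in liver. The kidney count ran from 1 to 4 as vehicle replicate 3 or 4 or ABT-737 replicate 3 or 4 was left out, and the liver count from 1 without ABT-737 replicate 4 to 5 in the fit that omitted vehicle replicate 3. None was called in lung or skin by edgeR, although 2 were called in lung without ABT-737 replicate 5. The leukocyte markers, 5 genes, summed to 69.5 to 87.6 CPM in young, 287 to 488 CPM in vehicle and 113 to 174 CPM in ABT-737 kidney and to 40.7 to 71, 380 to 860 and 64.5 to 124 CPM in liver, and the part of the markers in these differences was not tested.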

How the data were processed

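RNA of whole perfused tissue was made into barcoded bulk libraries derived from the MARS-seq protocol, which read the 3′ end of transcripts. The authors deposited raw whole-number counts per gene, with 1 table for kidney, liver and lung (RefSeq transcripts) and another for skin (Ensembl transcripts). The Ensembl models of the members reach further 3′, except those of Cx3cr1, with the same 3′ end, and Ackr1, which ends slightly earlier. Their processing notes name bcl2fastq, HISAT 0.1.5, HOMER and the build mm10. The use of strand and the collapsing of reads with the same molecular barcode are not given in the sources used here, so counting intervals and floors cover counting error only.

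Libraries were grouped by their titles and ages. The members and gene lists were chosen with earlier results of these data known. Each tissue was fitted with its 3 groups in edgeR 4.0.16 (R 4.3.3; filterByExpr, TMM, quasi-likelihood test), and kidney, liver and lung also in 1 fit of 30 libraries. P-values were adjusted by Benjamini-Hochberg over all genes tested, with a threshold of 0.05. Where no library of a group had more than 3 counts, that limit gave a lower bound of the fold. Where such a group held at least 1 count, the ratio of summed counts was taken with an exact 95% interval. Other settings were DESeq2 1.42.0, its size factors, no filter, at least 10 counts in every library, the compared groups alone, a replicate block (limma 3.58.1 with voom for the joint fit) and leaving out each library. All 9 members are named. Of each other list at most the 3 called genes with the largest change were named per tissue and contrast, and Bcl9l and Cadm3 were added afterwards as overlapping genes. Calls of the list of other chemokine receptors in lung are not reported here. The scripts were tested on simulated counts.

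Depth and the number of mice limit what could be seen: libraries of a group varied by a biological coefficient of 16.5% (kidney), 23.5% (liver), 31.7% (lung) and 34.9% (skin). The study counts its groups in mice, but the labels do not tie libraries to single mice, and the p-values measure the spread between libraries. As a check of pairing, deviations of same-numbered vehicle and ABT-737 libraries correlated at 0.176, 0.296 and 0.427 in lung. All were above 0.1, and the numbers were taken to pair these lung libraries on the data alone. The highest correlation with another number was 0.129, 0.303 and -0.0885, so vehicle replicate 4 was not closest to its own number. Same-numbered young and vehicle lung libraries correlated at 0.0637 and 0.106, so the block is not shown to pair these groups.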

Additional observations from a re-analysis of the deposited data

Results flagged for a closer look

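The vehicle minus young difference of Cxcr4 differed between lung and liver (adjusted p = 0.0248, edgeR), a difference between tissues in the same contrast. Its basis was low counts in liver, 0 in all 4 young libraries and 1, 10 and 1 in the vehicle libraries, against 48 to 56 in young and 62 to 126 in vehicle lung libraries. No receptor passed this test without liver vehicle replicate 4, which held 10 of those counts, nor without liver young replicate 2 or 3. In the young groups of 4 libraries, 9 combinations of a receptor and a tissue were examined for a library far from the rest, and none was found.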

How the results depend on the processing

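Of 782 values of single receptors under another setting, 722 kept their direction and their side of the threshold, 28 lost a call, 10 gained one and 22 turned in sign. Of the 782, 594 came from leaving out 1 library. The 722 include values that passed the threshold in neither setting. A receptor that failed the filter of a setting gave no value there, so calls lost in that way are not among the 28. DESeq2 gave 40 values, the compared groups alone 23 and the filter of 10 counts 9. Here the count of receptors called stands for each comparison. For ABT-737 against vehicle, kidney went from 0 to 1 with DESeq2 and with no filter beyond 1 count, and from 0 to 1 over fits without 1 library (1 without vehicle replicate 3), and liver from 0 to 1 with no filter. Over all genes, the 150 calls of kidney became 207 with DESeq2 and 368 with no filter. The 215 of liver became 512 with no filter. For vehicle against young in kidney the count of 2 became 5 with no filter, 0 with at least 10 counts in every library, 1 with the compared groups alone and 1 with the replicate block, and 1 to 4 without 1 library. Over all genes, the 1474 calls became 1818, 1059, 1858 and 369 in those settings, in the same order. In liver the 0 became 1 with DESeq2 and 3 with no filter, while the 1261 calls over all genes became 1109 and 1942. In lung the 4 became 0 with at least 10 counts in every library and 1 with the replicate block, and 1 to 5 without 1 library. Over all genes, the 1539 calls of lung became 1004 with at least 10 counts and 333 with the block. In skin the 0 became 1 with the compared groups alone, and the 1592 calls over all genes became 2013. For ABT-737 against young in lung the 1 became 2 with DESeq2 and with no filter, 0 with at least 10 counts, with the compared groups alone and with the replicate block, and 0 to 3 without 1 library. Over all genes, the 305 calls became 762, 805, 123, 487 and 4 in those settings, in the same order. The joint fit in limma-voom took libraries of the same group and replicate number in different tissues as a block. No label shows that these come from 1 mouse, and the correlation within this block was 0.00163. Young kidney against liver went from 0 to 1 with the block and 0 to 1 without 1 library, and young lung against liver ran from 2 to 3. The vehicle minus young contrast ran from 0 to 1 for lung minus kidney and from 0 to 2 for lung minus liver. Over all genes, the 5406 calls of young kidney against liver became 5928 with that block. The cause of these shifts was not tested, except that fewer receptors could be tested at 10 counts.

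Signs turned for values that had passed no test. Without 1 library the ABT-737 minus young difference of Cxcr4 ran from -0.45 to 0.93 in kidney, from -0.12 to 0.53 in lung (-0.018 with the replicate block) and from -0.35 to 0.33 in skin, and that of Ackr1 in skin from -0.17 to 0.81. The ABT-737 minus vehicle difference in lung ran from -2.15 to 0.21 for Ccr2, from -0.55 to 0.39 for Cxcr5 and from -1.17 to 0.040 for Cx3cr1. For Cx3cr1 in lung minus kidney, the vehicle minus young contrast ran from -0.34 to 0.30 (-0.0475 with DESeq2, -0.0774 with voom) and the ABT-737 minus vehicle contrast from -0.62 to 0.49 (-0.010 with voom).

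Over all genes, ABT-737 against vehicle in lung gave 0 calls by edgeR, 328 by DESeq2, 359 with no filter and 99 with the replicate block, and in skin 0, 58, 32 and 0. Same-numbered vehicle and ABT-737 libraries correlated at -0.175, -0.21 and 0.0196 in kidney and at -0.0442, 0.16 and -0.0227 in liver. In skin they correlated at -0.574, -0.577 and 0.276, and a pairing by number is not shown in these tissues. The block could change no receptor count in liver, where 0 receptors passed the filter. It took the kidney count of vehicle against young from 2 to 1. In skin it was run for ABT-737 against vehicle only and changed no count. No paired fit of skin with young mice was run because these groups share 1 number. The compared groups alone and the 10-count filter were not run in the joint fit.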
